A study of Mus musculus with 12 samples.

Results

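The SNARE proteins and vesicle priming factors are the machinery by which a vesicle fuses with its target membrane, and 38 of their genes, fixed as a list by symbol, were followed in RNA sequencing libraries of oligodendrocyte precursor cells (OPCs) and neurons from mouse cortex. Of the 38 genes, 37 were in the OPC table, among 30165 genes in all, and 38 in the neuron table, among 17918. Vamp7 was not analysed here in OPCs. The list was split into 12 isoforms that are best known from neurons, such as Snap25 and Stx1a, and 26 that are broadly expressed, such as Snap23 and Stx4a.

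Membrane fusion needs a SNARE of the vesicle (the VAMP family) to zip up with SNAREs of the target membrane (syntaxins and the SNAP-25 family). Syntaxin-binding proteins of the Sec1/Munc18 family guide this assembly, Unc13 and Rims proteins ready the vesicle at its release site, and complexins hold and then help the assembled complex. Afterwards the ATPase NSF, with its alpha- and beta-SNAP adaptors Napa and Napb, takes the complex apart. Neurons release transmitter mainly with Vamp2, Stx1a and Snap25, whereas lysosomes of many cell types fuse with the plasma membrane through Vamp7, Stx4 and Snap23.

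The libraries fell into 4 groups of 3: OPCs and neurons, each from control (ctl) and double knockout (dKO) mice. The dKO mice carried an NG2-CreERT2 knock-in with floxed Cacna1c and Cacna1d, which encode the calcium channels Cav1.2 and Cav1.3, and tamoxifen was given to young pups. The ctl mice are labelled WT, and whether they carried the Cre or the floxed alleles is not given in the sources used here, nor is the age at isolation. Since NG2 drives the Cre, the deletion was aimed at OPCs, and the neurons were cells beside them. OPCs were taken with beads against CD140, NG2 and O4, neurons by removing cells bound by ACSA-2, CD31, CD11b and O4 beads, and a pair of mice was pooled for each library.

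Total counts ranged from 14935963 to 19812274 per library in OPCs and from 15052898 to 16344611 in neurons. Cacna1c was at 21.3, 23.5 and 25.1 CPM (counts scaled to library size) in ctl OPCs and at 14.4, 19.3 and 17.9 in dKO OPCs, with a log2 difference of -0.44 ± 0.15 (SE) with an edgeR adjusted p of 0.349, and the Cacna1d libraries overlapped. The floxed sites flank only some exons of each gene, so counts over whole genes do not show how far the deletion went. The defining markers did not follow the labels alone, as the plot of marker sums shows. In OPC libraries the oligodendrocyte markers summed to 49720 to 86150 CPM and the OPC markers to 1408 to 2686 CPM. In neuron libraries the endothelial markers summed to 7723 to 18010 CPM and the neuron markers, Snap25 left out, to 656 to 1417 CPM. In none of the 7 lists was a marker at 0 in every library. The libraries thus held RNA of several cell types, and in bulk RNA fewer cells of a type cannot be told apart from less RNA per cell. Values given for OPCs or neurons are those of these mixed fractions, named by their labels.

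**Figure D1:**
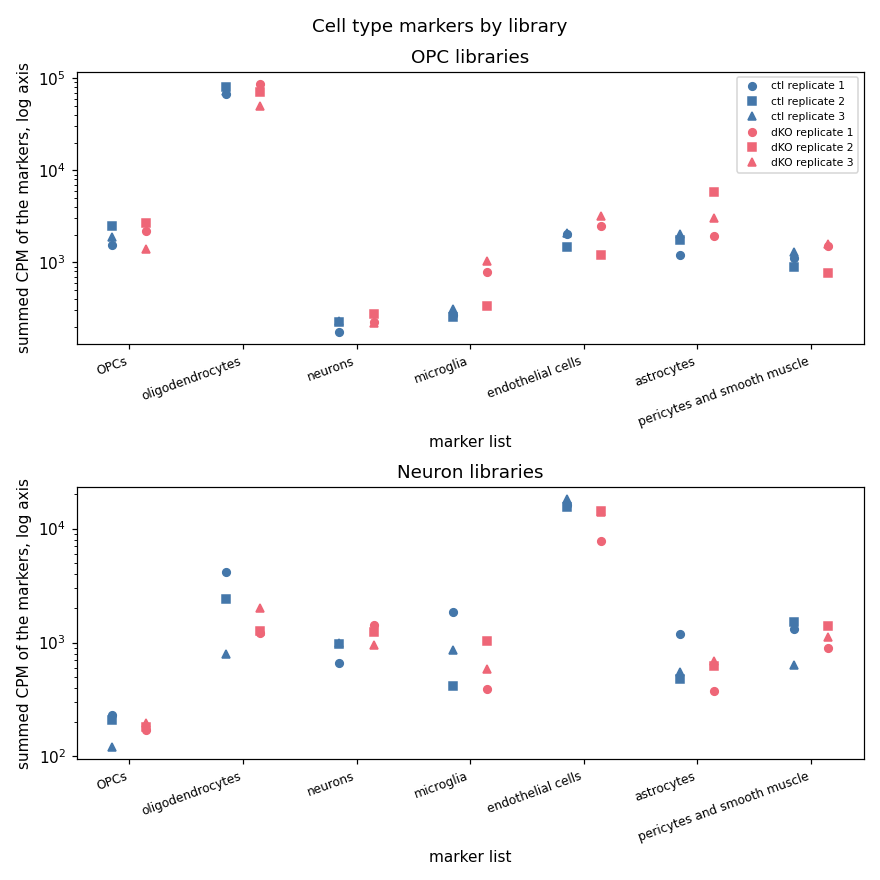
Summed CPM (log axis) of 7 marker lists in each library, with ctl in blue, dKO in red and a symbol per replicate number. Oligodendrocyte markers are highest in the OPC libraries, endothelial markers are highest in the neuron libraries, and microglia markers of the OPC libraries are higher in all 3 dKO than in all 3 ctl libraries.

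Which fusion genes each fraction used was read from TPM (transcripts scaled to the library), a level per length. OPC reads were counted per gene and divided by the deposited gene length, while neuron reads were estimated per transcript. The levels of the fractions are thus set side by side and were not tested against each other. The order, shares and TPM ratios of genes depend on the length used. In ctl, Vamp8 was at 28.2 CPM and 44.4 TPM in OPC libraries and at 101 CPM and 301 TPM in neuron libraries. In OPC libraries the highest levels were those of Vamp2, at 185 ± 10.7 TPM (SD, n = 3) in ctl, and of Vamp3, at 166 ± 13.4 TPM. Their 6 libraries overlapped, so that the order of this pair is not set. Stx4a followed at 136 ± 15.4 TPM, Napa at 133 ± 8.28 TPM, Stx12 at 108 ± 10.6 TPM and Stxbp3 at 102 ± 9.67 TPM. At the low end were Rab27a at 2.80 ± 1.16 TPM, Unc13a at 2.15 ± 0.373 TPM and Rab27b at 0.339 ± 0.0799 TPM. Over all members the median of the mean levels was 25.7 TPM, and 23 of 37 lay above the median of the genes tested.

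In neuron libraries Vamp3, at 316 ± 28.6 TPM in ctl, and Vamp8, at 301 ± 65.1 TPM, led, and they overlapped. Stx12 followed at 198 ± 13.5 TPM, Stx7 at 176 ± 4.25 TPM and Napa at 145 ± 13.5 TPM. Snap25, the SNARE that marks neurons, was at 105 ± 1.14 TPM and Snap23, its relative outside neurons, at 100 ± 1.44 TPM. Unc13a, at 0.910 ± 0.269 TPM, and Rab27b, at 0.427 ± 0.180 TPM, were at the low end again. The 12 neuronal isoforms together gave 21.2% ± 0.544 of the members' TPM in ctl OPCs and 16.3% ± 1.05 in ctl neuron libraries.

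**Figure D2:**
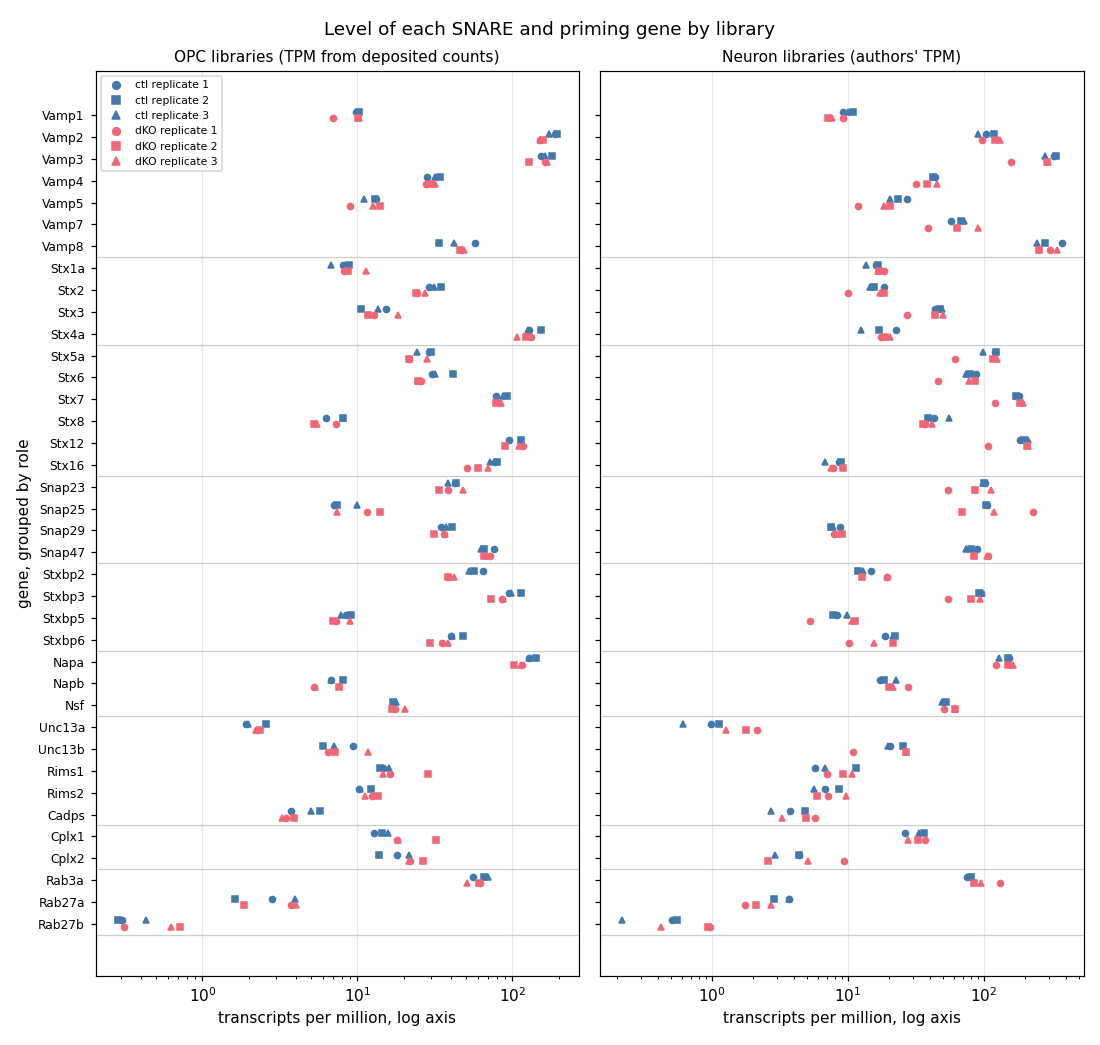
Level of each member in TPM (log axis) in the 6 OPC libraries (left) and the 6 neuron libraries (right), grouped by role, with ctl in blue and dKO in red. Vamp2, Vamp3 and Stx4a are highest in OPC libraries and Vamp8 and Vamp3 in neuron libraries, and dKO replicate 1 of the neurons stands apart at Snap25.

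The share of each gene in its SNARE family's TPM was then read within each fraction. Of the vesicle SNAREs in ctl OPCs, Vamp2 held 41.2% ± 0.937 of the TPM, Vamp3 36.9% ± 2.48 and Vamp8 9.90% ± 2.74. In ctl neuron libraries Vamp3 held 36.6% ± 1.80, Vamp8 34.6% ± 4.37 and Vamp2 12.2% ± 1.25. The share of each in the neuron libraries is over 7 vesicle SNAREs and in OPC libraries over 6, without Vamp7, which made up 7.71% ± 1.63 in ctl neuron libraries. Among syntaxins of the plasma membrane, Stx4a held 71.9% ± 1.73 in ctl OPCs, while Stx3 held the most in ctl neuron libraries with 49.2% ± 5.58. Stx1a, the syntaxin of the synapse, held 4.17% ± 0.361 and 16.1% ± 1.02. In the SNAP-25 family Snap47 led in ctl OPCs with 43.9% ± 3.18, and Snap25 held 5.26% ± 1.26. In ctl neuron libraries Snap25, with 35.5% ± 1.14, and Snap23, with 34.1% ± 0.598, were close.

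Whether loss of the channels in OPCs went with a change of this machinery was asked by comparing dKO with ctl in each cell type. After adjustment over all genes tested, 0 of 37 members in OPCs and 0 of 38 in neurons passed 0.05 with edgeR's quasi-likelihood test, and 0 passed with DESeq2. Over all genes tested, edgeR called 0.00576% in OPCs and 0% in neurons, and DESeq2 called 1.68% and 0.62%. Before adjustment, 6 of 37 members had a p under 0.05 in OPCs (16.2%), against 11.5% of all genes. In dKO 2 of them were higher and 4 lower, against 6.27% and 5.27% of all genes. In neurons 2 of 38 had such a p (5.26%), against 9% of all genes, 1 higher and 1 lower, against 4.96% and 4.04%. DESeq2 gave 5 and 3 members at this level, against 11.8% and 10.7% of all genes. The members' median log2 fold change was -0.00081 in OPCs and 0.06 in neurons, beside 0.01 over all genes in both.

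**Figure D3:**
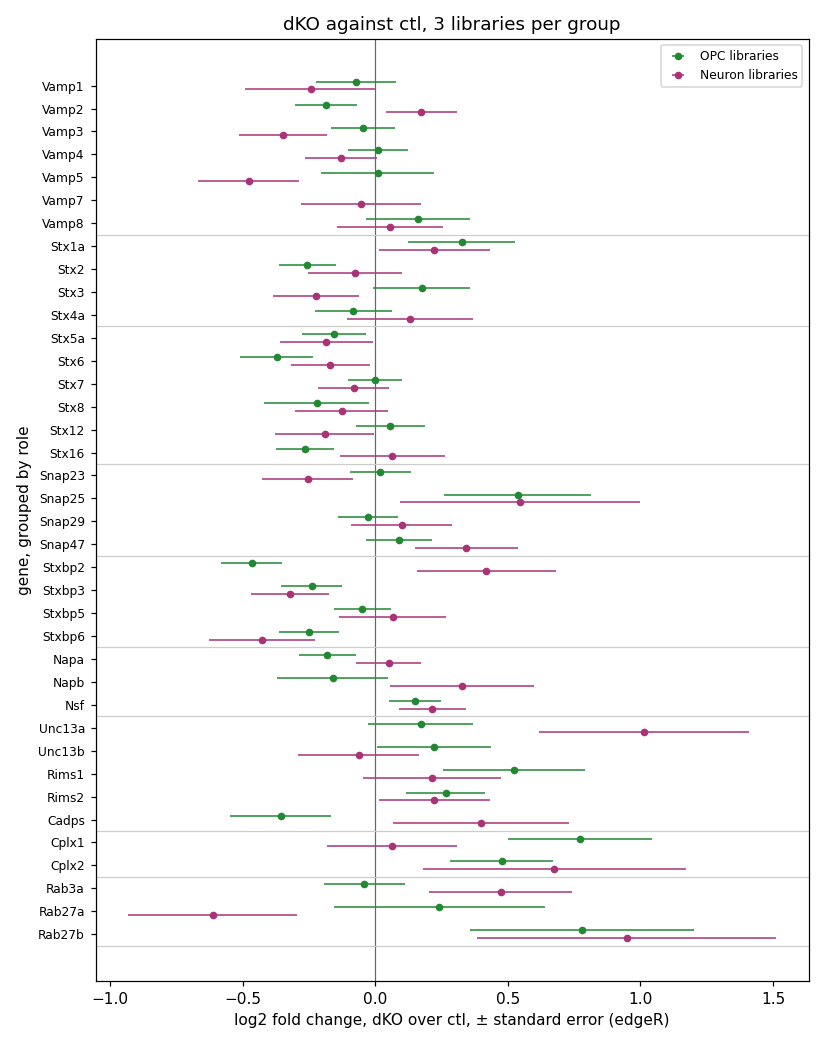
Log2 fold change of dKO over ctl with its standard error for each member in OPC libraries (green) and neuron libraries (purple), 3 libraries per group. No member passed an adjusted p of 0.05, and the widest bars belong to Rab27b, Cplx2 and Snap25 of the neuron libraries.

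The libraries of the 2 groups did not overlap for 9 of 37 members in OPCs, beside 16.9% of all genes, and for 6 of 38 in neurons, beside 15.3%. All 3 dKO libraries lay above ctl for 3 members in OPCs and 2 in neurons, beside 7.41% and 7.5% of all genes, and below for 6 and 4, beside 9.54% and 7.83%. In OPCs the members above ctl were Stx1a, Nsf and Cplx1, and those below were Stx2, Stx6, Stx16, Stxbp2, Stxbp3 and Stxbp6. In neurons Nsf and Unc13a were above and Vamp3, Vamp5, Stxbp3 and Rab27a below. Nsf stood above and Stxbp3 below ctl in both cell types, and the share of all genes that do so in both was not counted.

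The syntaxin-binding proteins held the member with the smallest p. Stxbp2 (Munc18-2, the partner of syntaxins in secretion outside neurons) was at 74.9, 63.2 and 59.2 CPM in ctl OPCs and at 48.1, 48.4 and 46.3 CPM in dKO OPCs. All 3 dKO libraries were lower than the lowest ctl library and close to each other. The log2 fold change was -0.47 ± 0.12 (edgeR, adjusted p = 0.287), and DESeq2 gave an adjusted p of 0.0588. In neuron libraries Stxbp2 was at 17.6, 16.1 and 18.5 CPM in ctl and at 31.5, 15.2 and 23.3 CPM in dKO, which overlap, with a log2 fold change of 0.42 ± 0.26 that was 0.14 without dKO replicate 1. Stxbp3 (Munc18c, which binds Stx4) was at 142, 163 and 143 CPM in ctl OPCs and at 139, 118 and 122 CPM in dKO OPCs. In neurons it was at 120.0, 121 and 140 CPM in ctl and at 90.3, 98.8 and 116 CPM in dKO. Its log2 fold changes, -0.24 ± 0.12 and -0.32 ± 0.15, pointed the same way, with edgeR adjusted p-values of 0.471 and 0.558. Stxbp6 (amisyn, which can bind SNAREs without a vesicle anchor) was at 59.7, 68.7 and 58.8 CPM in ctl OPCs and at 55.9, 47.8 and 53.8 CPM in dKO OPCs, and in neurons at 43.8, 54.1 and 57.9 CPM in ctl and 30.9, 48.7 and 36.3 CPM in dKO. Of the 4 syntaxin-binding proteins, 0 in OPCs (median of -0.24 on the log2 scale) and 2 in neurons had a log2 fold change above 0, beside 50.8% and 51.1% of all genes. In neurons this was 1 of 4 without dKO replicate 2 or 3. Oligodendrocyte markers were lower in 10 of 12 genes in dKO OPCs, with sums of 49720 to 86150 CPM against 67500 to 79610 CPM in ctl, and their part in the members' values was not tested.

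The promoters of Stxbp3 and Stx6 are printed because their upstream windows held a full match to an 8-letter palindrome of calcium-responsive or lysosomal gene control, TGACGTCA or TCACGTGA. RefSeq starts on GRCm38.p6 gave a window of 250 bases upstream for 32 of the 38 members. Both strands were searched for TGACGTCA, the palindrome bound by CREB, and TCACGTGA, which holds the E-box bound by TFEB, and for a looser form of the first (TGACGTNA), its core (TGACGT), the E-box itself (CACGTG) and the longer palindrome of the CLEAR element, which all overlap with these. Capitals mark the match, which starts 108 bases before the Stxbp3 start (minus strand, chr3:108840563-108840650) and 86 bases before the Stx6 start (plus strand, chr1:155158577-155158664).
Stxbp3: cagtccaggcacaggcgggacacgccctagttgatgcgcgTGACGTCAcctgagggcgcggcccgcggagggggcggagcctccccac
Stx6: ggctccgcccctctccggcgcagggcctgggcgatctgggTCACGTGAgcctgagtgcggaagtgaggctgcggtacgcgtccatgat
TGACGTCA was held by 1.77% of all genes with a window and by 1 of the 32 members, and TCACGTGA by 0.907% and 1 of 32. The shorter TGACGT was held by 7.29% of genes and 4 members, and CACGTG by 6.86% and 7 members. TGACGTNA was held by 2.92% and 2 members, Stxbp3 and Rab3a, and the CLEAR palindrome by 0.27% and 0 members. These are matches of letters, and no binding was measured.

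Syntaxins of the Golgi and endosomes, which serve traffic to and from lysosomes, had a log2 fold change above 0 for 1 of 6 genes in each cell type, beside 50.8% and 51.1% of all genes. In OPCs this was 2 of 6 with DESeq2, with no filter on low counts, with edgeR's own filter and without ctl replicate 2 or dKO replicate 3, and 0 of 6 without ctl replicate 1 or dKO replicate 1. In neurons it was 0 of 6 without dKO replicate 1 and 2 of 6 without dKO replicate 2. In dKO OPCs 12 of 12 microglia and 10 of 10 astrocyte markers were higher, and 10 of 12 oligodendrocyte markers lower. In dKO neuron libraries 12 of 12 endothelial markers were lower, and the part of these cells in the syntaxin values was not tested. Stx6 (a SNARE of the trans-Golgi network and endosomes) was at 89.7, 119 and 91.9 CPM in ctl OPCs and at 82.9, 79.5 and 69.3 CPM in dKO OPCs, so that the groups did not overlap. Its log2 fold change was -0.37 ± 0.14 (edgeR, adjusted p = 0.375), and -0.23 without ctl replicate 2. Neuron libraries held it at 121, 111 and 116 CPM in ctl and at 85.9, 117 and 107 CPM in dKO, which overlap. Stx16, also of the trans-Golgi network, was at 85.8, 85.1 and 77.2 CPM in ctl OPCs and at 61.3, 72.9 and 72.2 CPM in dKO OPCs, with a log2 difference of -0.27 ± 0.11 (edgeR, adjusted p = 0.415). In neurons Stx16 was at 17.3, 18.4 and 15.6 CPM in ctl and at 20.6, 18.3 and 14.8 CPM in dKO. Stx12, a syntaxin of recycling endosomes and the highest of this role by ctl TPM in both cell types, was at 84.9, 98.2 and 99.0 CPM in ctl OPCs and at 113, 87.6 and 92.9 CPM in dKO OPCs, and in neurons at 224, 250 and 291 CPM in ctl and 172, 247 and 251 CPM in dKO. Its groups overlapped in both. Stx5a, Stx7 and Stx8 had log2 fold changes of -0.22 to 0.00 in OPCs and -0.18 to -0.08 in neurons.

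Among the syntaxins of the plasma membrane, Stx2 was at 37.1, 43.1 and 39.1 CPM in ctl OPCs and at 33.4, 33.3 and 33.1 CPM in dKO OPCs. The groups did not overlap, with a log2 fold change of -0.26 ± 0.11 (edgeR, adjusted p = 0.421). Its neuron values were 28.6, 24.7 and 25.7 CPM in ctl and 20.4, 28.3 and 26.3 CPM in dKO. Stx1a was at 6.01, 6.34 and 4.90 CPM in ctl OPCs and at 6.60, 7.06 and 7.96 CPM in dKO OPCs, above ctl in every library, with a log2 fold change of 0.33 ± 0.20 (edgeR, adjusted p = 0.566) that was 0.21 without ctl replicate 3. The neuron levels were 18.1, 19.3 and 17.4 CPM in ctl and 27.2, 18.6 and 18.3 CPM in dKO. Stx4a, the main partner of Snap23 at the plasma membrane, was at 84.0, 98.0 and 81.6 CPM in ctl OPCs and at 93.8, 88.0 and 67.1 CPM in dKO OPCs. In neurons it was at 17.8, 13.2 and 11.1 CPM in ctl and at 17.4, 13.5 and 15.3 CPM in dKO. Stx3 was at 24.3, 16.3 and 21.3 CPM in ctl OPCs and at 22.0, 20.5 and 27.4 CPM in dKO OPCs, and in neurons at 77.1, 87.0 and 97.2 CPM in ctl and 62.9, 75.4 and 85.7 CPM in dKO. Stx3 and Stx4a overlapped between the groups in both cell types.

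Of the vesicle SNAREs, Vamp5 had an unadjusted p under 0.05 in neurons. It was at 22.4, 19.8 and 19.1 CPM in ctl and at 12.6, 16.5 and 14.9 CPM in dKO, a log2 fold change of -0.48 ± 0.19 (edgeR, adjusted p = 0.524). In OPCs it was at 10.01, 9.54 and 8.19 CPM in ctl and at 7.33, 11.6 and 8.997 CPM in dKO. Vamp3 (cellubrevin, of recycling endosomes) was at 357, 382 and 353 CPM in ctl neurons and at 228, 310 and 320 CPM in dKO neurons, below ctl in every library, with a log2 fold change of -0.35 ± 0.16 (edgeR, adjusted p = 0.567) that was -0.21 without dKO replicate 1. In OPCs it was at 124, 141 and 128 CPM in ctl and at 141, 112 and 127 CPM in dKO. Along with these members, the summed endothelial markers were lower in every dKO than in every ctl neuron library, at 7723 to 14150 against 15340 to 18010 CPM, with 12 of 12 genes lower. Microglia markers, at 391 to 1034 against 414 to 1843 CPM, and oligodendrocyte markers, at 1200 to 1998 against 788 to 4163 CPM, were also lower in 12 of 12 genes with sums that overlap, and the part of these cells in the values was not tested.

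Vamp2, the vesicle SNARE of synapses, was at 200.5, 199 and 180 CPM in ctl OPCs and at 174, 183 and 152 CPM in dKO OPCs. Neuron libraries held it at 117, 139 and 116 CPM in ctl and at 143, 133 and 144 CPM in dKO, so that both comparisons overlapped. Vamp8, which serves fusion of late endosomes and autophagosomes, was at 36.9, 20.9 and 26.7 CPM in ctl OPCs and at 32.6, 32.5 and 29.5 CPM in dKO OPCs, and in neurons at 119, 93.8 and 90.04 CPM in ctl and 128, 79.8 and 107 CPM in dKO. Vamp7, the SNARE of lysosome exocytosis, was at 77.5, 95.4 and 111 CPM in ctl neurons and at 68.9, 83.9 and 120 CPM in dKO neurons, with a log2 fold change of -0.05 ± 0.22. Vamp1 and Vamp4 had log2 fold changes of -0.07 and 0.01 in OPCs and -0.24 and -0.13 in neurons.

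In the SNAP-25 family, Snap25 was at 13.4, 13.5 and 18.4 CPM in ctl OPCs and at 23.6, 28.8 and 13.2 CPM in dKO OPCs. Its neuron values were 115, 117 and 131 CPM in ctl and 329, 73.7 and 128 CPM in dKO. The dKO neuron libraries thus held both the highest and the lowest value, and the log2 fold change of 0.55 ± 0.45 was -0.26 without dKO replicate 1. Snap23, which takes the place of Snap25 in most other cells, was at 50.9, 50.1 and 45.2 CPM in ctl OPCs and at 49.9, 44.0 and 54.3 CPM in dKO OPCs, with a log2 difference of 0.02 ± 0.12. The neuron levels were 119, 122 and 132 CPM in ctl and 83.9, 100.4 and 128 CPM in dKO. Snap47 was at 56.6, 47.2 and 45.3 CPM in ctl OPCs and at 57.3, 53.3 and 48.2 CPM in dKO OPCs, and in neurons at 87.5, 82.4 and 82.9 CPM in ctl and 138, 80.8 and 102 CPM in dKO. Snap29 had log2 fold changes of -0.03 and 0.10.

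Both complexins had an unadjusted p under 0.05 in OPCs, beside 11.5% of all genes. This was 0 of 2 without ctl replicate 1 (9.87% of all genes in that fit) or without dKO replicate 2 (13.3%). Cplx1 was at 7.86, 8.52 and 9.38 CPM in ctl OPCs and at 11.97, 21.4 and 10.6 CPM in dKO OPCs, above ctl in every library. Its log2 fold change of 0.77 ± 0.27 (edgeR, adjusted p = 0.358) was 0.40 without dKO replicate 2, the highest library. Cplx2 was at 24.8, 18.3 and 28.9 CPM in ctl OPCs and at 32.6, 39.7 and 28.0 CPM in dKO OPCs, with a log2 difference of 0.48 ± 0.19 (edgeR, adjusted p = 0.411) that was 0.32 without ctl replicate 2. In neurons Cplx1 was at 30.1, 43.0 and 43.5 CPM in ctl and at 54.7, 36.4 and 30.8 CPM in dKO, and Cplx2 at 12.4, 13.0 and 9.54 CPM in ctl and at 34.7, 7.16 and 14.0 CPM in dKO. Cplx2 had a log2 fold change of 0.68 ± 0.50 in neurons, which was -0.14 without dKO replicate 1.

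Among the priming factors, Unc13a (Munc13-1, which opens syntaxin at the synapse) had the smallest p of the members in neurons. It was at 4.42, 5.11 and 3.02 CPM in ctl and at 12.5, 7.40 and 5.44 CPM in dKO, above ctl in every library. The log2 fold change was 1.01 ± 0.39 (edgeR, adjusted p = 0.521) and 0.62 without dKO replicate 1. In OPCs Unc13a was at 6.71, 8.79 and 6.75 CPM in ctl and at 8.55, 9.03 and 7.41 CPM in dKO. Unc13b (Munc13-2) was at 59.1, 36.9 and 44.2 CPM in ctl OPCs and at 44.3, 49.6 and 69.8 CPM in dKO OPCs, and in neurons at 77.0, 96.3 and 84.2 CPM in ctl and 54.0, 96.7 and 96.1 CPM in dKO. Rims1, a scaffold of the active zone, was at 32.9, 30.8 and 35.1 CPM in ctl OPCs and at 39.9, 70.9 and 31.2 CPM in dKO OPCs. Its log2 fold change of 0.52 ± 0.27 was 0.11 without dKO replicate 2. In neurons Rims1 was at 19.7, 42.6 and 29.2 CPM in ctl and at 33.2, 33.6 and 39.3 CPM in dKO. Rims2 had log2 fold changes of 0.27 in OPCs and 0.22 in neurons, and Cadps (CAPS1, for dense-core vesicles) of -0.36 and 0.40.

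Nsf, which takes used SNARE complexes apart, was at 40.2, 38.0 and 40.2 CPM in ctl OPCs and at 43.9, 42.9 and 44.6 CPM in dKO OPCs. In neurons it was at 104, 112 and 116 CPM in ctl and at 137, 123 and 125 CPM in dKO. The groups did not overlap in either, with log2 fold changes of 0.15 ± 0.10 and 0.22 ± 0.13 and edgeR adjusted p-values of 0.580 and 0.646. Napa was at 136, 145 and 131 CPM in ctl OPCs and at 132, 118 and 113 CPM in dKO OPCs, and in neurons at 136, 140 and 130 CPM in ctl and 145, 132 and 143 CPM in dKO. Napb was at 13.3, 15.5 and 13.0 CPM in ctl OPCs and at 11.1, 16.2 and 9.92 CPM in dKO OPCs, and in neurons at 37.0, 40.6 and 54.8 CPM in ctl and 80.0, 42.0 and 44.2 CPM in dKO.

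Of the secretory Rabs, which tether vesicles before fusion, Rab27a was at 6.18, 4.86 and 6.93 CPM in ctl neurons and at 3.83, 3.52 and 4.39 CPM in dKO neurons, below ctl in every library, with a log2 fold change of -0.61 ± 0.32 (edgeR, adjusted p = 0.592). In OPCs it was at 3.05, 1.70 and 4.18 CPM in ctl and at 4.36, 2.18 and 4.10 CPM in dKO. Rab3a, the Rab of synaptic vesicles, was at 34.7, 39.3 and 42.1 CPM in ctl OPCs and at 41.4, 41.2 and 30.1 CPM in dKO OPCs. Neuron libraries held it at 49.0, 54.3 and 59.7 CPM in ctl and at 112, 53.5 and 60.4 CPM in dKO, and its log2 fold change of 0.47 ± 0.27 was 0.07 without dKO replicate 1. Rab27b had log2 fold changes of 0.78 ± 0.42 and 0.95 ± 0.56 at under 5 CPM in every library.

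The neuronal isoforms were then set against the broadly expressed ones. In neurons 11 of 12 neuronal isoforms had a higher mean in dKO, at a median of 0.28 on the log2 scale, and 10 of 26 broadly expressed isoforms, with a median of -0.08, beside 51.1% of all genes. Without dKO replicate 1 of the neurons, 7 of 12 neuronal isoforms were higher, with a median of 0.02. In that library the neuronal isoforms made up 28.9% of the members' TPM, against 15.1% to 17.2% in the other 5. Its neuron markers, at 1417 CPM, were the highest and its endothelial markers, at 7723 CPM, the lowest of the 6 libraries. Over all neuron libraries the neuron markers other than Snap25 were higher in dKO for 9 of 11 genes, at 945 to 1417 against 656 to 986 CPM, with dKO replicates 1 and 2 above every ctl library, and their part in these values was not tested. In OPCs 7 of 12 neuronal isoforms were higher in dKO, with a median of 0.22, and 11 of 25 broadly expressed isoforms, with a median of -0.03, beside 50.8% of all genes. Without dKO replicate 2 of the OPCs, the neuronal median was 0.11. The neuron markers other than Snap25 were higher in 10 of 11 genes in dKO OPCs, at 220.5 to 276 against 176 to 228 CPM. Microglia markers were higher in 12 of 12 genes, at 334 to 1039 against 257 to 311 CPM, astrocyte markers in 10 of 10, at 1939 to 5753 against 1202 to 2049 CPM, and endothelial markers in 12 of 12, at 1211 to 3153 against 1450 to 2060 CPM. Oligodendrocyte markers were lower in 10 of 12 genes. The part of all these markers' cells in the members' values was not tested.

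Pairs of a neuronal and a broadly expressed isoform allowed the balance to be read within a library, where depth cancels. In ctl OPCs the TPM ratio of Snap25 to Snap23 was 0.166, 0.170 and 0.257, and in dKO OPCs 0.299, 0.414 and 0.153. In ctl neuron libraries it was 1.03, 1.03 and 1.06, and in dKO 4.20, 0.794 and 1.07. The 3 ctl libraries were nearly equal, while dKO replicate 1 stood far above. The ratio of Vamp2 to Vamp3 was 0.320, 0.354 and 0.320 in ctl neuron libraries and 0.608, 0.418 and 0.439 in dKO, so that the groups did not overlap. Its log2 difference on counts was 0.54, and 0.37 without dKO replicate 1. In OPCs this ratio lay between 0.903 and 1.23 in all 6 libraries. The ratio of Rab3a to Rab27a was 20.4, 28.2 and 21.8 in ctl neuron libraries and 75.4, 39.6 and 34.7 in dKO, also without overlap, with a log2 difference of 1.00, and 0.66 without dKO replicate 1.

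Stx1a was 0.0533 to 0.0634 of Stx4a in ctl OPCs and 0.0624 to 0.105 in dKO OPCs, and 0.715 to 1.09 in ctl and 0.820 to 1.06 in dKO neuron libraries. Napb was 0.0525 to 0.0572 of Napa in ctl OPCs and 0.112 to 0.173 in ctl neuron libraries. Unc13a was 0.205 to 0.430 of Unc13b in ctl OPCs and 0.0306 to 0.0484 in ctl neuron libraries, with 0.0476 to 0.197 in dKO neuron libraries. Vamp2 was 3.30 to 5.76 times Vamp8 in ctl OPCs and 0.279 to 0.423 times Vamp8 in ctl neuron libraries. On counts, the mean log2 ratio of Vamp2 to Vamp8 in ctl neuron libraries was 0.30, so that which gene led depended on the length used. By an exact two-sided permutation test on log2 count ratios, Vamp2 to Vamp3 and Rab3a to Rab27a in neurons gave p = 0.1, the smallest that 3 libraries against 3 allow, and 0.35 after adjustment over the 7 pairs. The smallest in OPCs was p = 0.2 in this exact test, and 0.7 after adjustment.

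**Figure D4:**
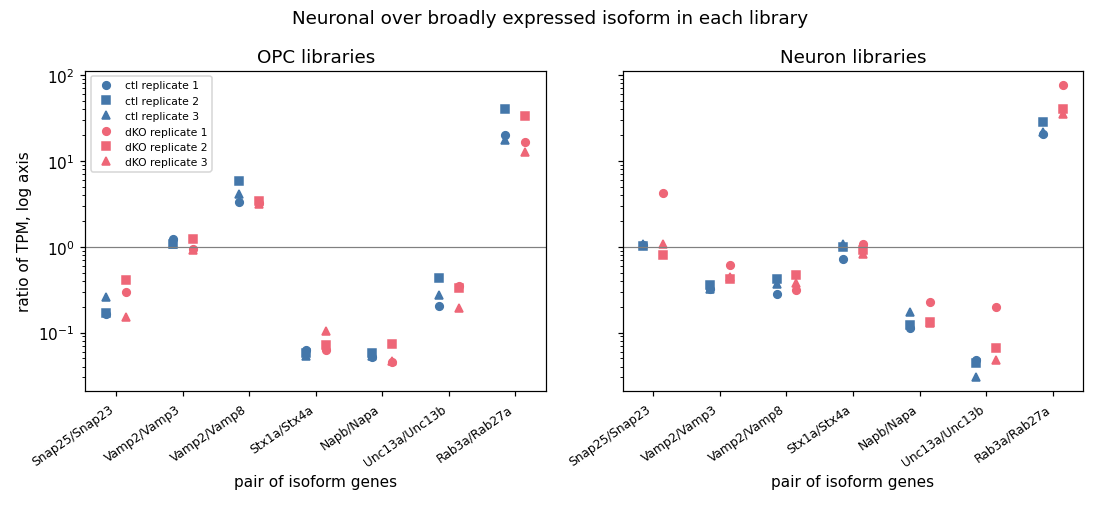
Ratio of TPM of a neuronal to a broadly expressed isoform (log axis) in each OPC library (left) and neuron library (right), with ctl in blue, dKO in red and a symbol per replicate number. Vamp2 to Vamp3 and Rab3a to Rab27a do not overlap between the groups in neurons, and dKO replicate 1 is the highest neuron library for Snap25 to Snap23.

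Genes that work with the members were counted in lists of their own, and none passed an adjusted p of 0.05 with edgeR or DESeq2 in either cell type. Of 25 other SNAREs and NSF partners tested in OPCs, 3 had an unadjusted p under 0.05 (11.5% of all genes did), 1 higher and 2 lower, with Vti1b at 0.33 ± 0.13 and Napg (gamma-SNAP) at -0.25 ± 0.10 on the log2 scale. In neurons it was 1 of 24, against 9% of all genes, Stxbp4 at 0.39 ± 0.14, followed by Scfd2 at -0.34 ± 0.22. In OPCs the count was 0 of 25 without any 1 of the ctl libraries (6.34% to 9.87% of all genes in those fits) or without dKO replicate 1 (11.4%). It was 3 with 0 higher without dKO replicate 2 (13.3%) and 3 with 3 higher without dKO replicate 3 (11.2%). In neurons it was 0 of 24 without ctl replicate 1 (5.45%) or 2 (8.35%). Of 38 synaptic vesicle and active zone genes in OPCs, 9 had an unadjusted p under 0.05, against 11.5% of all genes. In dKO 7 of these were higher and 2 lower, against 6.27% and 5.27%, and the list's median was 0.29 on the log2 scale. The active zone scaffold Bsn was at 0.76 ± 0.22 and its relative Pclo at -0.41 ± 0.14. In neurons 2 of 40 did, against 9% of all genes, with a median of 0.39, Syn1 at 0.66 ± 0.22 and Rab3d at -0.38 ± 0.16. In fits added after the data were seen, each library was left out in turn. The OPC median of the list was 0.08 without dKO replicate 2, and 2 of its genes had such a p without ctl replicate 2, against 6.34% of all genes in that fit, and 11 without dKO replicate 3, against 11.2%. In neurons the count was 0 of 39 without ctl replicate 1, against 5.45% of all genes, and 6 of 40 without dKO replicate 2, against 11%. Its neuron median was 0.01 without dKO replicate 1, whose neuron markers summed to 1417 CPM, the highest of the 6 neuron libraries. In OPCs the neuron markers other than Snap25 were higher in dKO for 10 of 11 genes, and their part in the list's values was not tested.

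Of the 9 exocyst subunits, which tether vesicles to the plasma membrane, 2 had a log2 fold change above 0 in each cell type, beside 50.8% and 51.1% of all genes. In neurons 6 of 9 were above 0 without dKO replicate 1 and 5 of 9 without ctl replicate 3. Of the 9, 1 in OPCs and 0 in neurons had an unadjusted p under 0.05, against 11.5% and 9% of all genes. It was 0 in OPCs without ctl replicate 2 (6.34% of all genes in that fit) and 1 in neurons without dKO replicate 2 (11%). Exoc6b was at 237, 310 and 247 CPM in ctl OPCs and at 220, 177 and 184 CPM in dKO OPCs, with a log2 difference of -0.45 ± 0.15 (edgeR, adjusted p = 0.330), and -0.32 ± 0.23 in neurons. Exoc1 was at -0.15 ± 0.11 in OPCs and Exoc6 at -0.24 ± 0.27 in neurons. The list of HOPS and CORVET tethers of lysosomes and endosomes also held Rab and Arl proteins, Plekhm1, Bloc1s1, Bloc1s2 and Borcs5. The HOPS subunit Vps33a was counted with the other SNAREs and NSF partners. Of the tether list, 0 of 16 in OPCs and 1 of 17 in neurons had an unadjusted p under 0.05, against 11.5% and 9%. With a library left out this was 0 to 2 in OPCs, highest without ctl replicate 1, beside 6.34% to 13.3% of all genes in those fits. In neurons it was 0 to 1, with 1 without ctl replicate 2 or dKO replicate 3, beside 5.45% to 11% of all genes. The neuron gene was Arl8a, which carries lysosomes along microtubules, at 0.37 ± 0.15 on the log2 scale, while Rab5b was at -0.21 ± 0.16. In OPCs Rab5c was at 0.25 ± 0.11 and Vps8 at -0.27 ± 0.13.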

How the data were processed

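RNA of 12 libraries was analysed. For OPCs, the authors deposited raw counts per Ensembl gene, made per their methods with HISAT2 on GRCm38 and featureCounts, although the submitters' processing notes name mm39. For neurons they deposited estimated counts and TPM per RefSeq transcript, and the tool is not given in the sources used here. Estimated counts were summed per gene and rounded, and deposited TPM were summed. OPC TPM were computed from counts and the deposited gene length. Columns of normalized counts, FPKM, group means and the authors' fold changes and p-values were not used.

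Each cell type was tested with edgeR 4.0.16 (R 4.3.3, quasi-likelihood, TMM, mean normalized count of at least 10, genotype as the only term) over 17364 and 14352 genes, with Benjamini-Hochberg adjustment. CPM are TMM-normalized, and each SE is the log2 value over the root of the test's F. In a simulation where 200 genes differed by 1 on the log2 scale, 110 were called in OPCs (17193 genes run) and 25 in neurons (14276), and with a difference of 2, 199 in each (17175 and 14291). Members and lists were chosen with earlier results of these data known. Values per library are given for members at an unadjusted p under 0.05, without overlap between groups, in an isoform pair or highest in their role. Vamp7 in neurons is given as well, though it met none of these. A list gene is named by an adjusted p under 0.05 or as one of the 2 smallest p. The labels do not say that libraries share a mouse, and p-values measure the spread between these pooled samples. No library was a copy of another in its group. The kit does not mark strand, so reads where Unc13a and Colgalt1, Snap29 and Pi4ka, Vamp1 and Tapbpl, or Snap47 and Jmjd4 overlap on opposite strands cannot be told apart. Vamp3 and Camta1 overlap on the same strand. A further overlap is not reported here.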

Additional observations from a re-analysis of the deposited data

How the results depend on the processing

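With DESeq2 1.42.0, size factors by relative log expression, no filter, edgeR's own filter, a replicate block or any library left out, 0 members passed an adjusted p of 0.05 in either cell type. Members at an unadjusted p under 0.05 numbered 2 to 7 in OPCs, with 2 without ctl replicate 2 (6.34% of all genes in that fit) and 3 without dKO replicate 2 (13.3%), and 1 to 8 in neurons, with 8 without dKO replicate 2 (11%), 4 without dKO replicate 3 (7.43%) and 1 without any of the other 4 libraries (5.45% to 8.35%). In neurons, with a library left out, the median of all members ranged from -0.0186 to 0.0707, that of neuronal isoforms from 0.02 to 0.43 and that of broadly expressed isoforms from -0.182 to -0.0276, with the first 2 lowest without dKO replicate 1. In OPCs they ranged from -0.05 to 0.02, from 0.11 to 0.31 and from -0.07 to 0.00. The direction of these members turned in at least 1 fit with a library left out, and Cplx2, Snap25 and Napb in neurons, at 0.68, 0.55 and 0.33 with all libraries, turned without dKO replicate 1. In OPCs Vamp3 ranged from -0.127 to 0.0354, Vamp5 from -0.18 to 0.16, Vamp8 from -0.0124 to 0.405, Stx4a from -0.179 to 0.0391, Stx12 from -0.0586 to 0.132, Snap23 from -0.0633 to 0.0968, Unc13b from -0.0056 to 0.427, Rab3a from -0.117 to 0.085 and Rab27a from -0.0291 to 0.554. In neurons Vamp7 ranged from -0.31 to 0.11, Vamp8 from -0.11 to 0.22, Stx2 from -0.171 to 0.0517, Stx4a from -0.0117 to 0.339, Stx16 from -0.048 to 0.182, Snap25 from -0.26 to 0.91, Napb from -0.0335 to 0.514, Unc13b from -0.19 to 0.17, Rims1 from -0.0214 to 0.534, Cplx1 from -0.21 to 0.23 and Cplx2 from -0.14 to 1.06. The log2 difference of Napb to Napa in OPCs ranged from -0.24 to 0.12, of Unc13a to Unc13b from -0.30 to 0.24 and of Rab3a to Rab27a from -0.728 to 0.036. In neurons Snap25 to Snap23 ranged from -0.18 to 1.02, Vamp2 to Vamp8 from -0.0261 to 0.28, Stx1a to Stx4a from -0.14 to 0.17 and Napb to Napa from -0.0366 to 0.432. The cause was not tested.

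Libraries of the same number did not deviate together in all pairs, with correlations of -0.10, 0.14 and 0.11 in OPCs and 0.17, -0.09 and -0.08 in neurons, so the numbers were not taken as pairs. With the replicate block, 4 members in OPCs and 3 in neurons had an unadjusted p under 0.05, against 11.7% and 8.95% of all genes, and Vamp5 in OPCs was at -0.0111. The smallest edgeR adjusted p of a member was 0.287 with all libraries and 0.165 over these settings, for Stxbp2 in OPCs in both. In the simulation, where all genes shared a spread, a change of 1 on the log2 scale was missed in most genes of the neuron libraries. The members differ in spread, so changes of that size may have been missed, and the rate for the members themselves was not measured.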
